A study of Mus musculus with 10 samples.

Results

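The transcription factors that drive epithelial-mesenchymal transition (EMT) were followed in 10 mouse tumors, and the set held 9 genes, *Snai1*, *Snai2*, *Snai3*, *Twist1*, *Twist2*, *Zeb1*, *Zeb2*, *Foxc2* and *Tcf4*. Members were chosen by name only, as every non-control probe whose gene name in the scanner files was one of these symbols or an older synonym. This gave 15 of the 40196 probes tested, which between them stood for 19279 named genes. *Zeb2* had 5 probes, *Tcf4* had 3 and each of the other 7 genes had 1. The older names in the files were Zfhx1a for *Zeb1*, and Zfhx1b and D130016B08Rik for *Zeb2*. Where a gene had several probes, the brightest one stood for it.

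The study set 5 sarcomatoid (spindle cell) carcinomas, whose malignant cells are elongated like those of connective tissue, against 5 adenocarcinomas, which keep a glandular form, to find genes that go with metastasis. Each tumor was measured on 1 array against a common reference RNA, so each value is a log2 ratio of tumor over reference and each group difference is a log2 difference. The adenocarcinomas (tumors 105, 131, 470, 17 and 85) were mammary primaries of C57BL/6 mice with *MMTV-Cre* and the alleles *Pik3ca* H1047R and *Trp53* R270H. The sarcomatoid group held 3 mammary primaries (tumors 323, 307 and 594) and 2 lung tumors numbered 323 and 307. Per the study's methods, its primaries came from 3 *MMTV-Cre* mice. The first, also on C57BL/6, carried both *Pik3ca* H1047R and *Trp53* R270H, the second *Pik3ca* H1047R with *Trp53* R245H arisen in the tumor, and the third *Trp53* R270H alone. The strain of the second and the third was not given in the sources used here. The lung tumors grew after cell lines of the first and the second of these primaries were injected into the tail vein. The labels do not say which of tumors 323 and 307 had which genotype. All 10 tumors thus carried *MMTV-Cre*, whose promoter drives Cre mainly in mammary epithelium, and a mutant *Trp53*. The sarcomatoid group had 3 tumor origins, not 5, and tumor 594 is labelled sarcomatoid carcinoma where the other four are labelled sarcomatoid adenocarcinoma. Ages were not given in the sources used here.

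In EMT, epithelial cells loosen their junctions, lose apical-basal polarity and become motile. The SNAIL factors (Snai1, Snai2, Snai3) and the ZEB factors (Zeb1, Zeb2) are zinc finger repressors that bind E-boxes in the promoters of junction genes such as *Cdh1*, while the TWIST factors and Tcf4 are basic helix-loop-helix proteins and Foxc2 is a forkhead protein. In breast tumors these factors are expressed by carcinoma cells with mesenchymal features and also by stromal cells, and *Zeb2* is well known in macrophages.

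The direction of every ratio is likely rather than settled. The label names Cy3 (green) as the dye of the tumor RNA, but green varied less between arrays than red (mean SD of log2 signal 0.738 against 0.987), and each column of the deposited table ran with red over green on that tumor's array (Pearson r over probes, 0.841 to 0.924). Red was therefore read as the tumor, and if the label were right every sign below would turn. From 52.3% to 83.1% of probes per array were well above background. Per the file headers the arrays fell into 3 scan batches by extraction protocol. Batch 1 held tumor 323 alone, batch 2 held tumors 307, 594, 105 and 470, and batch 3 held both lung tumors and tumors 131, 17 and 85. Adenocarcinoma 470 lay well above the other adenocarcinomas for *Snai1*, *Twist2*, *Zeb1* and *Zeb2*, so results are given with and without it. The arrays measured bulk tissue, in which fewer cells of a type and less RNA per cell cannot be told apart.

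Between the sarcomatoid carcinomas and the adenocarcinomas, *Zeb2*, *Snai2*, *Zeb1*, *Snai1* and *Twist1* had higher mean ratios in the sarcomatoid tumors, by 0.95 to 2.32 on the log2 scale, and *Snai3*, *Twist2*, *Foxc2* and *Tcf4* differed by at most 0.31 in size. The difference was above 0 for 11 of the 15 probes, against 49.8% of all probes. None of the 15 had an adjusted p below 0.05 in limma's fit across all probes with Benjamini-Hochberg adjustment, and neither did any other probe (0% of all probes higher and 0% lower). At an unadjusted p below 0.05, 8 of the 15 probes were higher (all 5 of *Zeb2*, and *Zeb1*, *Snai1* and *Twist1*), against 4.98% of all probes, and 0 were lower, against 4.25%. Counted by gene this was 4 of 9. The median difference was 1.24 over the member probes and 0.95 over the 9 genes, beside 0.00 over all probes. Values of the 2 groups overlapped for every member, while 0.866% of all probes were higher in sarcomatoid tumors with no overlap. These p-values measure the spread between tumors, and 2 pairs of the sarcomatoid tumors share an origin.

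**Figure D1:**
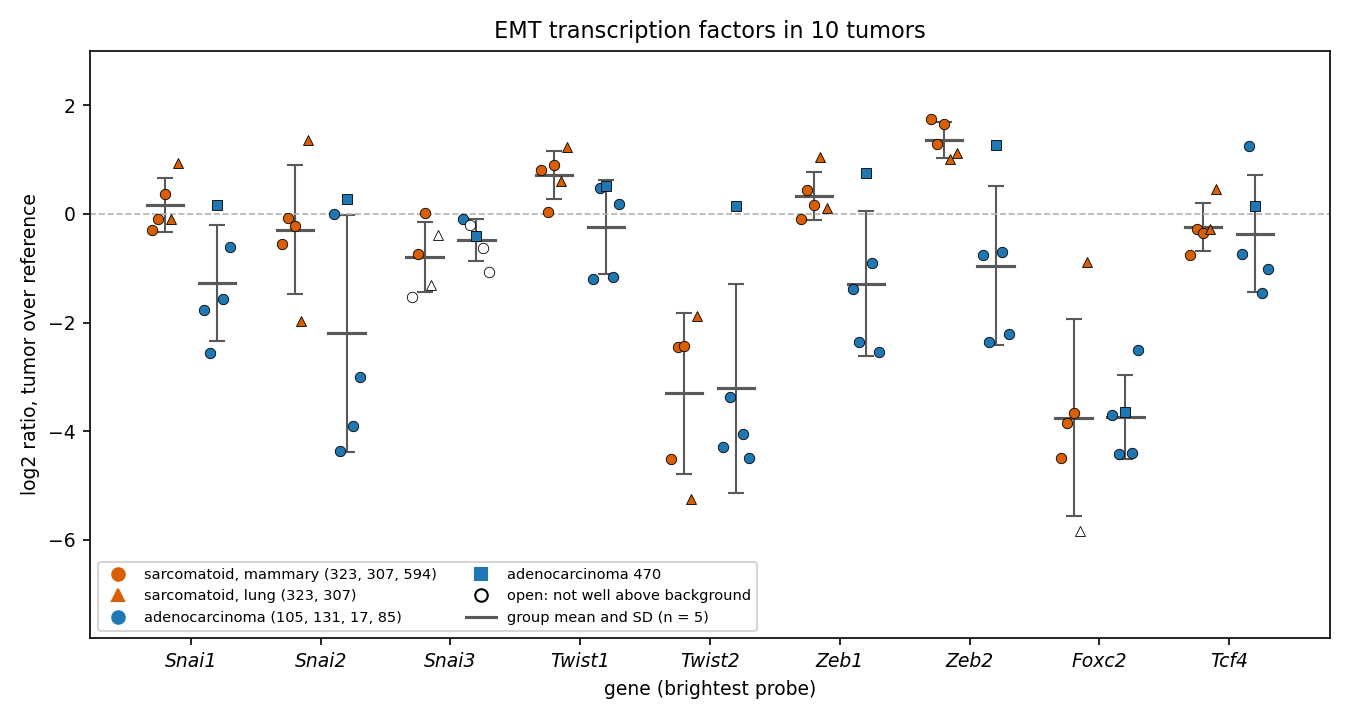
Log2 ratio of tumor over reference (vertical axis) of the brightest probe of each of the 9 genes (horizontal axis) in each of the 10 tumors, with the mean and SD of each group (n = 5); open symbols were not well above background. The sarcomatoid tumors lie close together for *Zeb2* (1.0 to 1.75) and *Zeb1* (-0.09 to 1.04), while the adenocarcinomas spread from -2.36 to 1.26 and from -2.55 to 0.76, with tumor 470 (square) at the top.

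*Zeb2*, a zinc finger repressor of *Cdh1* and of other junction genes, showed the largest difference of the 9 genes. Its brightest probe, A_52_P596008 (chromosome 2, 44994565 to 44994624, mm7), read 1.75, 1.28 and 1.65 in the mammary sarcomatoid tumors 323, 307 and 594 and 1.0 and 1.12 in the lung tumors 323 and 307. In adenocarcinomas 105, 131, 470, 17 and 85 it read -0.77, -2.36, 1.26, -0.70 and -2.20. All 5 sarcomatoid tumors were thus at about 1.0 or above, 4 adenocarcinomas were below the level of the reference, and tumor 470 lay among the sarcomatoid values. The group means were 1.36 ± 0.33 and -0.96 ± 1.46 (SD, n = 5 each), a difference of 2.32 ± 0.58 (SE) or 4.98-fold. The adjusted p from limma was 0.330, and a two-sided exact permutation test for this probe alone over the 10 arrays gave p = 0.024. With 1 mean value per tumor number (3 against 5) the exact permutation p was 0.071. The smallest p these tests allow is 0.00794 and 0.0179. *Zeb2* was also named by the study as raised in these same tumors, so its place here is not independent evidence.

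The other 4 *Zeb2* probes ran with the first, at r of 0.83 to 0.99 between probes over the 10 arrays (10 probe pairs, median 0.92). Their differences were 2.09 for A_51_P121206, 1.84 for A_52_P526372, 1.81 for A_52_P587928 and 1.24 for A_51_P106893, and adjusted p over the 5 probes ran from 0.330 to 0.471. On A_51_P121206 the sarcomatoid tumors read from 1.53 to 2.75 and the adenocarcinomas from -1.52 to 1.79. The order of the tumors was alike: adenocarcinomas 131 and 85 were the lowest on all 5 probes, and tumor 470 the highest adenocarcinoma. The sizes depended on the normalization. Rebuilt from the scanner files with normexp background correction and loess, the difference was 2.09 for A_52_P596008 and 1.76 for A_51_P121206, but 1.19, 1.17 and 0.41 for A_52_P526372, A_52_P587928 and A_51_P106893. The first and last of these 3 were also not well above background in 1 and 2 of the 5 adenocarcinomas.

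**Figure D2:**
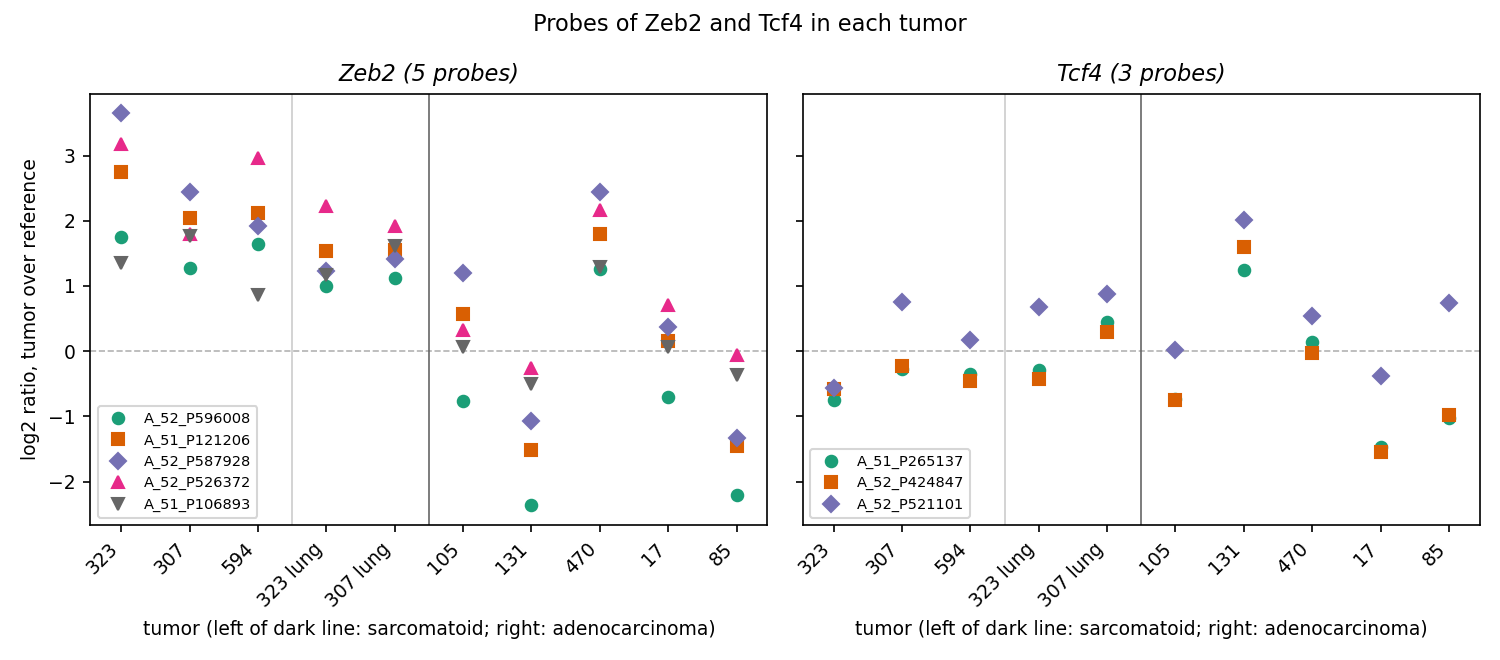
Log2 ratio of tumor over reference (vertical axis) of the 5 probes of *Zeb2* and the 3 probes of *Tcf4* in each tumor (horizontal axis, sarcomatoid left of the dark line and adenocarcinoma right of it). The probes of a gene follow each other, with *Zeb2* lowest in tumors 131 and 85 and *Tcf4* highest in tumor 131.

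Promoter sequence was read from RefSeq (GRCm38.p6, 250 bases before to 50 after the start site) for the 4 member genes with an entry, *Snai1*, *Twist1*, *Twist2* and *Zeb2*. It was searched for the E-box CACCTG, on the other strand CAGGTG, the hexamer that SNAIL and ZEB repressors are known to bind. Of 32851 promoters of this length, 6640 (20.2%) held it. *Snai1* held 1 match, whose first base lies at -126 from the start site, while *Twist1*, *Twist2* and the 4 entries of *Zeb2* held none. A match describes the letters only, and no match says nothing about binding. The *Snai1* window (chr2:167537945-167538244, plus strand, the match in capitals) and the first *Zeb2* window (chr2:45117393-45117692, minus strand) are shown for the 2 families whose factors differed most between the groups.
Snai1: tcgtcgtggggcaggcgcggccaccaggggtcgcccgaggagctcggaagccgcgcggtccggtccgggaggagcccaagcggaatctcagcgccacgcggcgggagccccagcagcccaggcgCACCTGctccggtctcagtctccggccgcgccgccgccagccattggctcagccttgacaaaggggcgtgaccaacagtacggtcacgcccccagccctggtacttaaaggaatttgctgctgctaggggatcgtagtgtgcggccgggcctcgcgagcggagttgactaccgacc
Zeb2: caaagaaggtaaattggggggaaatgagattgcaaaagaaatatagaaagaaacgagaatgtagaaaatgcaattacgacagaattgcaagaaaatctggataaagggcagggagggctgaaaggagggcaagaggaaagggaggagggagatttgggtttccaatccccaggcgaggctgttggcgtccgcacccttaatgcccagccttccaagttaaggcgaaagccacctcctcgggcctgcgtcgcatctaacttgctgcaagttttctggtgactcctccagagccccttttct

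*Snai1*, a zinc finger repressor of *Cdh1* that is turned over quickly in cells, also read higher in the sarcomatoid tumors on average. Probe A_51_P165087 (chromosome 2, 167283227 to 167283286, mm7) read -0.30, -0.10 and 0.36 in mammary sarcomatoid tumors 323, 307 and 594 and -0.09 and 0.94 in lung tumors 323 and 307. The adenocarcinomas 105, 131, 470, 17 and 85 read -1.77, -2.57, 0.17, -1.56 and -0.60. Apart from tumor 470, which fell between sarcomatoid tumors, each adenocarcinoma was below each sarcomatoid tumor. The means were 0.16 ± 0.50 and -1.27 ± 1.06 (SD, n = 5 each), a difference of 1.43 ± 0.47 (SE) or 2.69-fold, with an adjusted p from limma of 0.405. The exact permutation p was 0.032 over arrays and 0.071 over tumor numbers.

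*Snai2* (Slug), which is also a factor of normal basal mammary cells, was far more variable. Probe A_51_P305547 (chromosome 16, 14250104 to 14250163, mm7) read -0.55, -0.08 and -0.23 in mammary sarcomatoid tumors 323, 307 and 594 and -1.97 and 1.35 in lung tumors 323 and 307. Adenocarcinomas 131, 17 and 85 read -4.36, -3.90 and -3.00, whereas tumors 105 and 470 read -0.01 and 0.27. The adenocarcinomas thus fell into a low set of 3 and a set of 2 that matched the sarcomatoid tumors, and the sets coincide with scan batches 3 and 2. The difference of 1.91 ± 0.93 (SE), or 3.75-fold, had an adjusted p of 0.563 from limma and an exact permutation p of 0.135. *Snai3*, the least studied SNAIL factor, was dim: A_51_P356186 (chromosome 8, 121098338 to 121098397, mm7) was well above background on 4 arrays only, those of tumors 307, 594, 105 and 470. Its ratios ran from -1.54 to 0.01 in sarcomatoid tumors and from -1.06 to -0.10 in adenocarcinomas, and the difference was -0.31 ± 0.33 (SE, adjusted p from limma 0.827).

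*Zeb1*, the closest relative of *Zeb2* and likewise a repressor of *Cdh1*, had 1 probe, A_52_P546635, on chromosome 18. It read -0.09, 0.44 and 0.17 in mammary sarcomatoid tumors 323, 307 and 594 and 1.04 and 0.10 in lung tumors 323 and 307. In adenocarcinomas 105, 131, 470, 17 and 85 it read -1.39, -2.35, 0.76, -0.90 and -2.55. The sarcomatoid values were near the reference level or above it, and the adenocarcinomas again lay below them except for tumor 470. The means were 0.33 ± 0.44 and -1.29 ± 1.33 (SD, n = 5 each). The difference of 1.62 ± 0.55 (SE), or 3.07-fold, had an adjusted p from limma of 0.413. The exact permutation p was 0.040 over arrays and 0.107 over tumor numbers.

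*Twist1*, a basic helix-loop-helix factor of mesoderm that can induce EMT, differed less. Probe A_52_P20906 (chromosome 12, 31805579 to 31805638, mm7) read 0.80, 0.04 and 0.90 in mammary sarcomatoid tumors 323, 307 and 594 and 0.61 and 1.22 in the lung tumors 323 and 307, against -1.20, 0.47, 0.50, -1.16 and 0.19 in adenocarcinomas 105, 131, 470, 17 and 85. Adenocarcinomas 105 and 17 lay clearly below the sarcomatoid range and the other 3 inside it. The difference was 0.95 ± 0.41 (SE) or 1.94-fold, with an adjusted p of 0.508 from limma and an exact permutation p of 0.071. *Twist2*, its close homolog in dermal and other mesenchymal cells, was far below the reference in 9 of the 10 tumors on A_51_P165504 (chromosome 1, 91755751 to 91755809, mm7). Sarcomatoid tumors read from -5.24 to -1.88 and adenocarcinomas from -4.48 to -3.37, apart from tumor 470 at 0.15, the highest of all 10. The group means, -3.30 ± 1.48 and -3.21 ± 1.92 (SD, n = 5 each), differed by -0.10 ± 0.91 (SE, adjusted p from limma 0.985).

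*Foxc2*, a forkhead factor of mesenchyme and lymphatic vessels, was likewise low, on A_51_P196444 (chromosome 8, 119751942 to 119752001, mm7). It ran from -5.84 in lung tumor 323, where it was not well above background, to -0.89 in lung tumor 307, so the lung tumors set both ends of the range over all 10 tumors. The adenocarcinomas lay between -4.42 and -2.51, and the group difference was -0.01 ± 0.75 (SE, adjusted p from limma 0.999). *Tcf4* (E2-2), an E protein that pairs with other helix-loop-helix factors and is also known in plasmacytoid dendritic cells, was the brightest member. Its main probe, A_51_P265137, on the same chromosome as *Zeb1*, read from -0.75 to 0.45 in sarcomatoid tumors and -0.74, 1.25, 0.15, -1.46 and -1.02 in adenocarcinomas 105, 131, 470, 17 and 85. Tumor 131 was the highest of the 10 on all 3 probes, reaching 2.02 on A_52_P521101, although it was among the lowest for *Zeb2*, *Zeb1* and *Snai1*. The differences of the 3 probes were 0.12, 0.06 and -0.21, with adjusted p from 0.926 to 0.984 in limma's fit. The plasmacytoid dendritic cell markers *Siglech*, *Ccr9*, *Spib* and *Irf7* had a median difference of -0.21, and array means of -1.18 to -0.14 in sarcomatoid tumors and -0.83 to 0.21 in adenocarcinomas.

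Adenocarcinoma 470 was the highest adenocarcinoma for 6 of the 9 genes (*Snai1*, *Snai2*, *Twist1*, *Twist2*, *Zeb1* and *Zeb2*) and lay within the sarcomatoid range for 8 of the 9. The exception was *Twist2*, where it was above both groups. It was singled out for these values, so what follows without it depends on the same measurements and is a description. Without it, 5 of the 15 member probes had an adjusted p below 0.05, all higher in sarcomatoid tumors, against 0.846% of all probes. These were 4 *Zeb2* probes and the *Zeb1* probe. The difference then was 2.87 for *Zeb2* A_52_P596008 (adjusted p from limma 0.018) and 2.13 for *Zeb1* (0.030), while *Snai1* at 1.79 (0.057), *Snai2* at 2.52 (0.196) and *Twist1* at 1.14 (0.230) missed the threshold. Without tumor 470, 7 probes did not overlap between the groups, those of *Snai1*, *Zeb1* and *Zeb2*, against 3.48% of all probes higher with no overlap. Its removal moved the number of calls over all probes from 0 to 618, and no other single array gave the members a call.

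**Figure D3:**
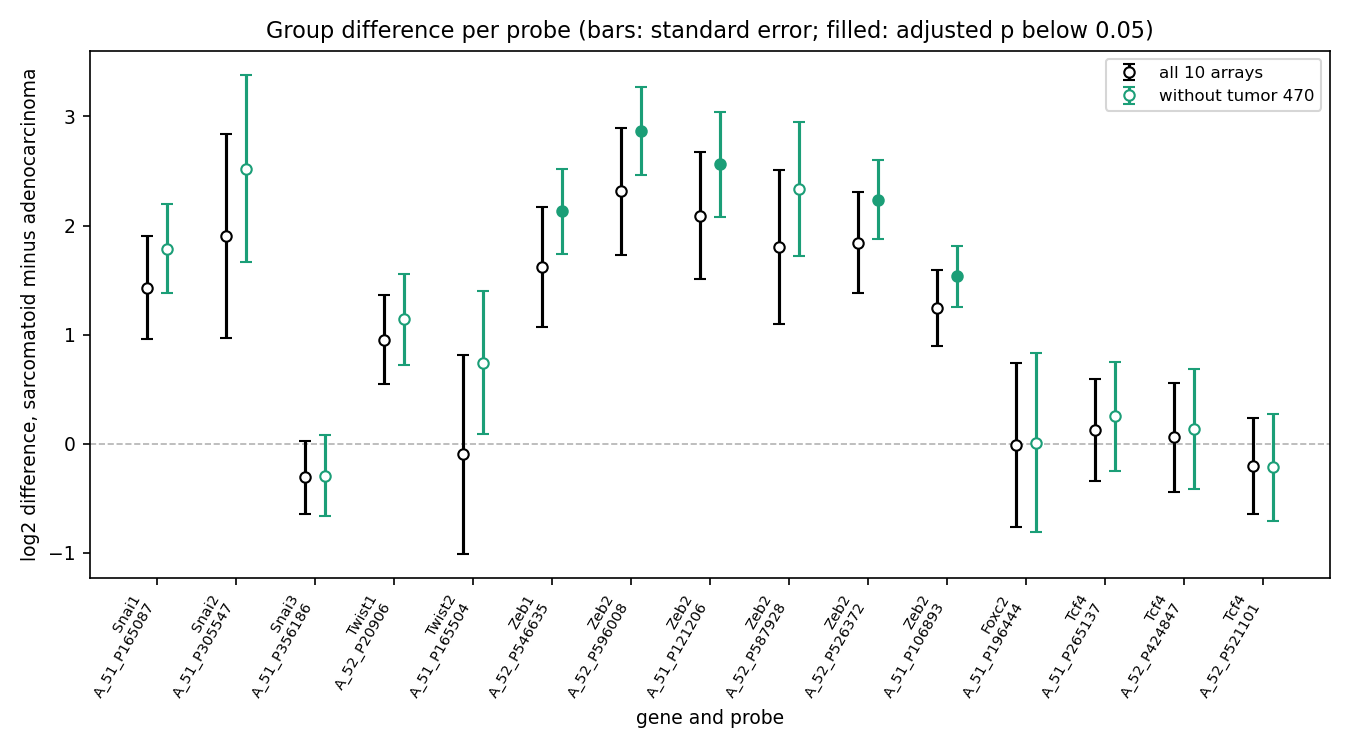
Log2 difference of sarcomatoid minus adenocarcinoma (vertical axis) for each of the 15 probes (horizontal axis) with all 10 arrays and without tumor 470; bars are the standard error and filled symbols have an adjusted p below 0.05. With all arrays no symbol is filled, and without tumor 470 the 5 filled ones are 4 *Zeb2* probes and *Zeb1*.

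Scan batch moved with some of these values. Within batch 2 (307 and 594 against 105 and 470) the sarcomatoid minus adenocarcinoma difference was 1.22 for *Zeb2* A_52_P596008, 0.93 for *Snai1*, 0.82 for *Twist1*, 0.62 for *Zeb1* and -0.29 for *Snai2*. Within batch 3 (both lung tumors against 131, 17 and 85) the same differences were 2.82, 2.0, 1.08, 2.5 and 3.45. The 5 *Zeb2* probes gave 0.36 to 1.22 in batch 2 and 1.66 to 2.82 in batch 3. *Zeb2*, *Snai1*, *Twist1* and *Zeb1* were thus higher in sarcomatoid tumors within both batches, and *Snai2* in batch 3 only. Batch 2 held tumor 470 and mammary sarcomatoid tumors 307 and 594, and batch 3 the lung ones, so batch, site and tumor 470 cannot be told apart in this contrast. Mammary tumor 323, alone in batch 1, entered neither difference. With batch as a term over all 10 arrays the difference was 2.09 for *Zeb2*, 1.65 for *Zeb1*, 1.52 for *Snai1*, 1.75 for *Snai2* and 0.96 for *Twist1*, none with an adjusted p below 0.05.

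With the lung tumors kept as a group of their own, the 3 mammary sarcomatoid tumors minus the 5 adenocarcinomas differed by 2.51 for *Zeb2* A_52_P596008, 1.91 for *Snai2*, 1.46 for *Zeb1*, 1.25 for *Snai1* and 0.82 for *Twist1*. Of the 15 probes 0 had an adjusted p below 0.05, as for all probes (0% higher and 0% lower), and limma's lowest adjusted p among the members was 0.556. At an unadjusted p below 0.05, 7 were higher, against 4.83% of all probes. On 2 *Zeb2* probes the groups did not overlap, against 3.9% of all probes higher with no overlap. The gap was narrow on A_52_P596008 (1.28 in tumor 307 against 1.26 in tumor 470) and wider on A_51_P121206 (2.04 against 1.79). Without tumor 470 the same contrast gave an adjusted p below 0.05 for 2 *Zeb2* probes, A_52_P596008 (0.038) and A_52_P526372 (0.039), against 0.311% of all probes. With scan batch as a term over all arrays, the contrast rests on batch 2, the only batch with both mammary sarcomatoid tumors and adenocarcinomas. Mammary tumor 323 and adenocarcinomas 131, 17 and 85 then add nothing to the differences. The differences repeat those within batch 2, 1.22 for *Zeb2*, 0.62 for *Zeb1*, 0.93 for *Snai1*, 0.82 for *Twist1* and -0.29 for *Snai2*. Of the 15 probes 0 had an unadjusted p below 0.05, against 0.861% of all probes higher and 1.27% lower.

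Between the lung tumors, grown from cell lines of sarcomatoid primaries, and the mammary sarcomatoid tumors, none of the 15 probes passed the test in either direction. An adjusted p below 0.05 was reached by 0.00995% of all probes higher in lung and by 0.0149% lower. No member had an unadjusted p below 0.05 either, against 5.59% of probes higher and 5.1% lower. The lung minus mammary difference was -0.50 ± 0.86 (SE) for *Zeb2* A_52_P596008, which leaves room for a change in either direction. On 3 of its 5 probes both lung tumors read below all 3 mammary ones, against 16.9% of all probes lower with no overlap. The differences of the other 4 *Zeb2* probes ran from -1.35 to 0.06. Lung and mammary sarcomatoid tumors never shared a scan batch. A fit with batch as a term therefore compares them only through the adenocarcinomas of batch 3 (131, 17 and 85) and batch 2 (105 and 470). It gave 1.60 for *Zeb2* A_52_P596008, a value that depends on those adenocarcinomas and is not read as a reversal. With tumor number as a fixed block over the 2 pairs the *Zeb2* A_52_P596008 difference was -0.45, with a limma adjusted p of 0.677. In that fit 0 probes of all passed in place of 10.

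Within a tumor number the factors did not move together. In tumor 307 the lung tumor was higher by 2.96 in *Foxc2*, 1.44 in *Snai2*, 1.19 in *Twist1* and 1.04 in *Snai1*, while *Zeb1* differed by -0.34 and *Zeb2* by -0.16. In tumor 323 the lung tumor was higher by 1.13 in *Zeb1* and 0.21 in *Snai1*, and the differences were -1.42 for *Snai2*, -0.75 for *Zeb2* and -0.73 for *Twist2*. *Foxc2* gave -1.35 there, but was not well above background in lung tumor 323. In all, 7 of 9 genes were higher in the lung tumor of number 307 and 4 of 9 in that of number 323. *Snai1* and *Tcf4* were higher in the lung tumor of both numbers, and 5 genes went opposite ways. *Zeb2* was lower in both on its brightest probe, but A_52_P526372 gave 0.11 in tumor 307. *Snai3*, counted among the higher genes of both numbers, was not well above background in either lung tumor, so its direction is not read. With 2 pairs, these are values without a test.

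**Figure D4:**
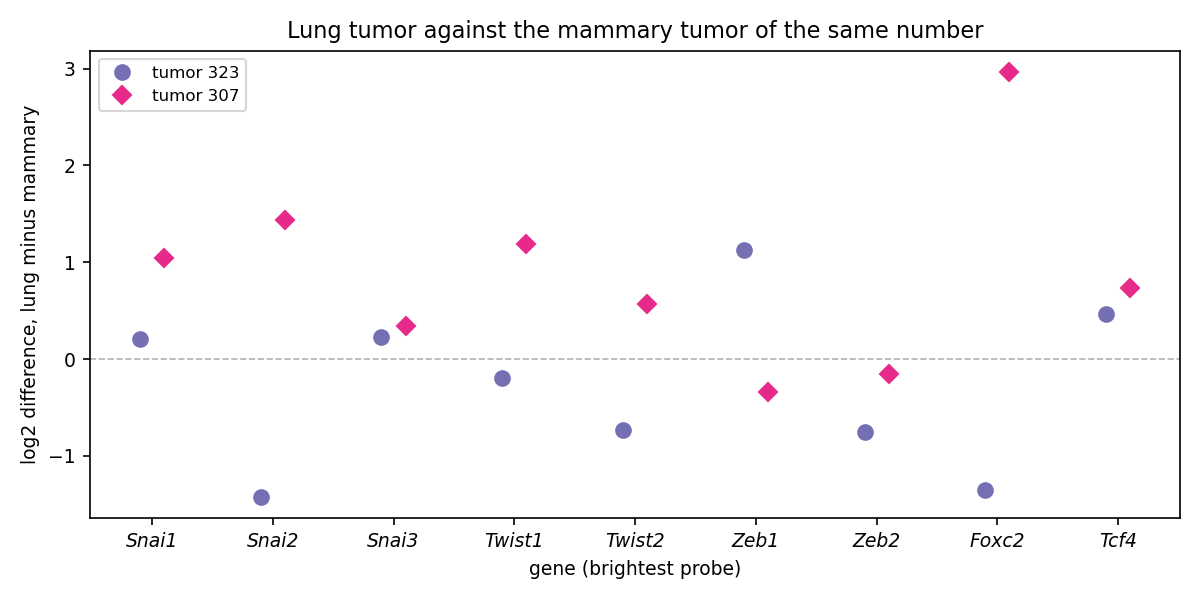
Log2 difference of the lung tumor minus the mammary tumor of the same number (vertical axis) for each of the 9 genes (horizontal axis), for tumors 323 and 307. The pairs lie on opposite sides of 0 in *Snai2* (-1.42 and 1.44) and in *Foxc2* (-1.35 and 2.96, with lung tumor 323 not well above background), and *Zeb2* (brightest probe) is below 0 in both.

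The E-protein and Id list, the corepressors and turnover factors, and the upstream inducers had medians near that of all probes. Among 6 E-protein partners and Id inhibitors (helix-loop-helix proteins that pair with or block TWIST factors), 3 differences were above 0, the median was -0.15 and 0 had an adjusted p below 0.05. *Id4* differed most, by -2.24 (adjusted p from limma 0.480), followed by *Id2* at -0.96 (0.690). At an unadjusted p below 0.05, 1 of the 6 was lower, *Id4*, against 4.25% of all probes, and 0 were higher. Among 10 corepressors and turnover factors, such as the CtBP and histone deacetylase proteins through which ZEB and SNAIL repress, differences ran from -0.30 (*Ctbp2*) to 0.30 (*Hdac2*), with a median of -0.07 and none with an unadjusted p below 0.05. Of 9 other EMT-linked factors 6 were above 0. Their median of 0.37 is the value of *Gsc*, which was well above background in 0 sarcomatoid tumors and 2 adenocarcinomas. The factors farthest from 0 were *Foxc1* at -1.51 and *Hmga2* at 1.49 (adjusted p from limma 0.431 and 0.555). At an unadjusted p below 0.05, 0 of the 9 were higher and 2 were lower, *Foxc1* and *Sox4* (-1.03), against 4.98% and 4.25% of all probes. Of 9 upstream inducers 4 were above 0 (median -0.08), and both receptors of the TGF-beta pathway were the farthest from 0, *Tgfbr2* at 1.16 and *Tgfbr1* at 0.96 (adjusted p 0.405 and 0.480), while *Tgfb1* itself read 0.11. At an unadjusted p below 0.05, 2 of the 9 inducers were higher, both receptors, against 4.98% of all probes, and 0 were lower. The median over all probes was 0.00.

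Genes that hold the epithelial state lay on the other side. All 10 epithelial counter-regulators with a probe, factors such as the Grainyhead and Ovol proteins that oppose ZEB, differed by less than 0, with a median of -1.65. The largest were *Grhl2* at -3.07 and *Esrp2* at -2.56, with adjusted p of 0.516 and 0.569 in limma's fit, and 0 of 10 had an adjusted p below 0.05. At an unadjusted p below 0.05, 5 of 10 were lower, against 4.25% of all probes, of which 49.8% were above 0. All 12 junction and polarity genes that these factors repress were also below 0, with a median of -1.86. Of these 12 genes, 4 were lower at an unadjusted p below 0.05, against the same 4.25% of all probes, and 0 at an adjusted one. *Dsp*, a desmosome component, differed by -3.53 (adjusted p from limma 0.437) and *Epcam* by -2.86 (0.583). *Cdh1*, the E-cadherin gene, differed by -1.15 (0.763), with 3.74 ± 2.09 in sarcomatoid tumors and 4.89 ± 1.47 in adenocarcinomas (SD, n = 5 each). Among sarcomatoid tumors its low values were in the lung (2.20 and 1.17), while mammary tumors 323, 307 and 594 read 6.49, 4.44 and 4.38. For mammary sarcomatoid tumors against adenocarcinomas *Cdh1* differed by 0.21. In that contrast the medians were -0.98 over the counter-regulators (9 of 10 below 0) and -0.96 over the junction genes (10 of 12 below 0). The median over all probes was -0.01 there. In each list 1 gene was lower at an unadjusted p below 0.05, against 3.76% of all probes. Over all 10 tumors, 8 of 10 mesenchymal genes were above 0 (median 1.23). *Fn1* (fibronectin) at 1.63 and *Cdh2* (N-cadherin) at 1.51 led, with adjusted p from limma of 0.462 and 0.600. The study had named some of these genes, *Epcam* and *Dsp* among them, on these same tumors.

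Lung and mammary sarcomatoid tumors lay farther apart in the epithelial lists than in the EMT factors, as medians without a test. The median lung minus mammary difference was -2.36 over the counter-regulators (8 of 10 below 0) and -3.36 over the junction genes (12 of 12 below 0), beside 0.34 over the 9 EMT factors and 0.03 over all probes. The array means of the counter-regulators were -1.48 and -0.53 in the lung tumors and 0.77 to 1.95 in the mammary sarcomatoid tumors. At an unadjusted p below 0.05, 5 of 10 counter-regulators and 6 of 12 junction genes were lower, against 5.1% of all probes. No gene of either list had an adjusted p below 0.05 in this contrast. In the lung tumors 6 to 8 of 10 counter-regulators and 8 to 9 of 12 junction genes were well above background. Some of the low lung ratios thus rest on dim probes. Lung and mammary sarcomatoid tumors never shared a scan batch, so site and batch cannot be told apart here. In adenocarcinoma 470 the counter-regulator mean was -0.47, while the other adenocarcinomas were at 2.17 to 3.28.

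Markers of other cell types were read beside these values. All 10 macrophage markers were above 0 in sarcomatoid minus adenocarcinoma, with a median of 1.5, where 49.8% of all probes were above 0. At an unadjusted p below 0.05, 6 of the 10 were higher, against 4.98% of all probes, and 0 at an adjusted one. *Adgre1* (F4/80) differed by 1.80 and *Csf1r* by 1.71, with adjusted p of 0.345 and 0.346 in limma's fit. The mean of the 10 markers per array was 2.92 to 3.55 in sarcomatoid tumors and 1.13 to 3.19 in adenocarcinomas, and all 10 were well above background on every array. The adenocarcinomas lowest in *Zeb2*, tumors 131 and 85, were also the lowest in macrophage markers (1.13 and 1.42), and tumor 470 was the highest adenocarcinoma in both. The part of macrophages in the *Zeb2* result was not tested. All 10 fibroblast markers were above 0 (median 0.74, none with an unadjusted p below 0.05), with array means of -0.89 to 2.37 and -1.30 to 2.52 in the 2 groups. Lung tumor 307, the highest in *Snai2*, *Twist1* and *Foxc2*, had a fibroblast mean of 2.37, and lung tumor 323, the lowest in *Foxc2* and *Twist2*, had -0.89. Other tumors did not all follow this pairing. Tumor 470 had the highest fibroblast mean (2.52) and the highest *Twist2*, but its *Foxc2* read -3.65. Tumor 594, with a mean of 2.08, read -3.66 in *Foxc2*. Tumors 131 and 17 had lower means than lung tumor 323 (-1.30 and -1.28) but higher *Twist2* (-3.37 and -4.05 against -5.24). The part of fibroblasts in these values was not tested.

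The remaining marker lists had smaller or negative medians in this contrast. Mammary epithelium markers (7 of 7 below 0) had a median of -2.34 and were well above background for at least 6 of 7 genes on every array. At an unadjusted p below 0.05, 3 of the 7 were lower, against 4.25% of all probes, and 0 at an adjusted one. Medians were 0.26 for 7 T cell markers, -0.03 for 5 B cell, 0.11 for 8 endothelial, 0.03 for 7 lung epithelium, -1.05 for 5 skeletal muscle and -0.63 for 4 adipocyte markers, none with an unadjusted p below 0.05. The lung epithelium markers gave array means of -0.20 and 1.23 in the lung tumors, beside -0.15 to 0.91 in the mammary tumors of both groups. Of these 7 genes, 2 to 5 were well above background in the lung tumors. In mammary sarcomatoid tumors 4 to 6 were, and in adenocarcinomas 1 to 6. Their means thus rest in part on dim probes and do not measure the content of lung tissue.

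Some lists differed between lung and mammary sarcomatoid tumors, which never shared a scan batch, as values that did not pass the adjusted test. T cell markers had array means of 0.52 to 1.04 in the mammary sarcomatoid tumors and -1.04 and -0.80 in the lung tumors. In adenocarcinomas 105 and 470 they were 0.66 and 0.52, and in 131, 17 and 85 they were -0.56, -0.64 and -0.49. T cell means were thus below 0 on all batch 3 arrays and above 0 on all arrays of batches 1 and 2. Site and scan batch cannot be told apart for these markers. In the mammary contrast 6 of 7 were above 0 (median 1.0, beside -0.01 over all probes). There 3 were higher at an unadjusted p below 0.05, against 4.83% of all probes. In lung minus mammary 6 of 7 were below 0 (median -1.48, beside 0.03 over all probes). There 4 were lower at an unadjusted p below 0.05, against 5.1% of all probes. Mammary epithelium markers were below 0 for 7 of 7 genes in lung minus mammary (median -3.06). Of these, 3 were lower at an unadjusted p below 0.05, against the same 5.1% of all probes. No gene of either list had an adjusted p below 0.05 in these contrasts. The other lung minus mammary medians were -0.32 for macrophage, -0.61 for B cell, -0.64 for plasmacytoid dendritic cell, -0.06 for fibroblast, -0.57 for endothelial, 0.49 for lung epithelium, 0.61 for skeletal muscle and -0.32 for adipocyte markers. The part of these cell types in the lung and mammary values was not tested.

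**Figure D5:**
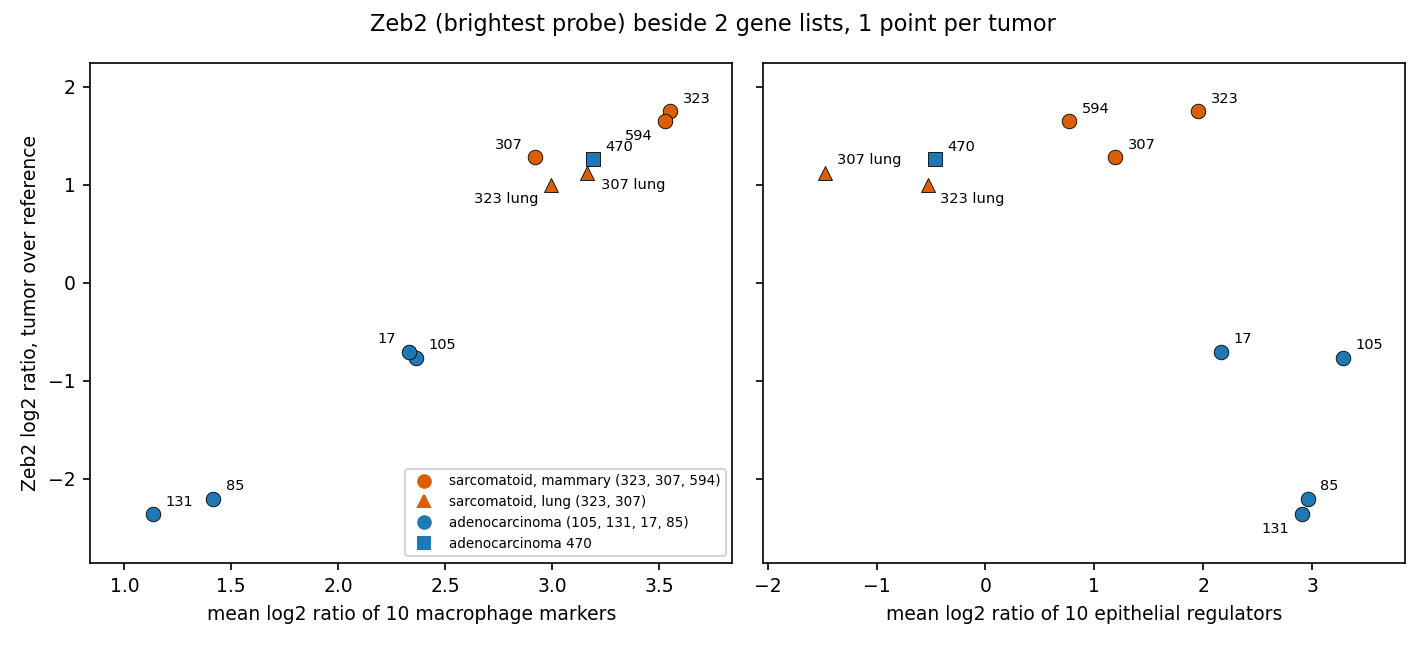
*Zeb2* log2 ratio of each tumor (vertical axis, probe A_52_P596008) against the mean log2 ratio of 10 macrophage markers and of 10 epithelial counter-regulators (horizontal axes), with tumors labelled. Tumors 131 and 85 are low in *Zeb2* and in macrophage markers, and both lung tumors have *Zeb2* ratios of 1.0 and 1.12 with the lowest counter-regulator means.

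Across the 10 tumors *Zeb1* and *Zeb2* ran closest together of all pairs of the 9 genes (Pearson r = 0.93), followed by *Snai1* with *Zeb2* (0.78), *Snai2* with *Zeb2* (0.75) and *Snai1* with *Snai2* and with *Zeb1* (0.73 each). *Tcf4* and *Zeb2* had an r of -0.03. These describe 10 points that include both groups, 3 scan batches and 2 pairs of one origin. Among 16155 genes well above background on at least 5 arrays, those most like *Zeb2* included *St8sia4* (0.978) and AI662270 (0.977). Those most like *Zeb1* were *Slc25a24* (0.984), *Gnb4* (0.975) and *Htra1* (0.966), and like *Snai1* were *Heatr5a* (0.970), *Mtmr11* (0.948) and *Dpysl3* (0.948). *Snai2* was closest to *Fosl2* (0.978), *Vasn* (0.957) and *Hspa12b* (0.945), and *Twist1* to *St6galnac4* (0.956), *Tmem251* (0.955) and *Fmn1* (0.941). For *Twist2* the closest were *Ptprn*, *Grem1* and *Rcan1* (0.900 to 0.907), for *Snai3* *Gpr107*, *Trim25* and *Tmem127* (0.895 each), for *Foxc2* *Myo1d*, *Sparcl1* and *Lag3* (0.930 to 0.959) and for *Tcf4* they included *Olfr790* (0.938) and *Cope* (0.934).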

How the data were processed

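RNA of 10 tumors was measured on 2-colour Agilent mouse arrays. The authors deposited a normalized table of log2 ratios, made with limma by steps not given in the sources used here, and scanner files of spot intensity written by Feature Extraction (10.7.3.1, 11.0.1.1 and 11.5.1.1 in scan batches 1, 2 and 3, per the file headers). The deposited log2 table was used, and the deposited intensity values (other scanner columns with them) served direction, detection and alternatives. Of 42515 rows, 134 controls and rows without a matching array probe were left out, and 40196 probes were tested without a filter. Probes were named through the RefSeq gene table (GRCm38) by accession (22818), symbol (6358) or synonym (2998), leaving 8022 without a name. The coordinates printed are those of the array of mammary tumor 323, on mm7. Per the file headers the array design was on mm8 in batch 3 and on mm7 in batches 1 and 2.

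Tests used limma 3.58.1 in R 4.3.3 (lmFit and eBayes, two-sided, Benjamini-Hochberg over all probes, threshold 0.05), in a 2-group fit and a 3-group fit that split sarcomatoid tumors by site, and exact permutation of single probes. Python 3.11.15 was used elsewhere. In a simulation of 40196 probes, values were drawn as independent normal noise with each probe's mean and within-group SD. Of probes given a log2 difference of 2, 66% were recovered for sarcomatoid against adenocarcinoma, and of those given 4, 97%. The draws held no shared origin, scan batch or outlying tumor, so these shares do not measure the power of the real fits. Tumor number pairs lung with mammary tumors 323 and 307 by origin, with a consensus correlation of 0.155 in the 3-group fit. Members, lists and the rule for named genes (the 2 genes farthest from 0 per list, the 3 nearest by correlation per member) were chosen with earlier results of these data known. Of the nearest genes, 2 are not reported here. Alternatives were 3 rebuilds from scanner files (normexp with offset 50 and loess, processed signals, no background correction), median centring, a filter on dim probes, scan batch, slide and tumor number as blocks, 1 value per tumor number, leaving out arrays and probe means. The number of arrays limits the precision.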

Additional observations from a re-analysis of the deposited data

Results flagged for a closer look

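*Twist2* in adenocarcinoma 470 read 0.15 (log2 ratio of tumor over reference), while the other 4 adenocarcinomas lay between -4.48 and -3.37. The gap to the nearest of them was 0.759 of the whole range of the group, above the 95% critical value of 0.71 for 5 samples. In all 30 combinations of member probe and group were searched and 1 was flagged, where chance gives about 1.5.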

How the results depend on the processing

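In the results on the members, 794 alternative values kept the direction and side of the threshold, 72 turned direction and 7 passed a threshold that the values over all arrays missed. The differences of *Zeb2*, *Snai1*, *Zeb1* and *Twist1* between sarcomatoid tumors and adenocarcinomas kept their direction under every alternative run, and so did *Snai2* in that contrast. All 7 newly passing values came without tumor 470. Leaving out 1 array at a time, probes past the threshold ranged from 0 to 618 for sarcomatoid against adenocarcinoma (0 to 5 among the members), from 0 to 210 for the mammary contrast (0 to 2) and from 0 to 84 for lung against mammary (0 to 0). With 1 value per tumor number 2 probes passed the first contrast. Lung against mammary, 10 over all arrays, gave 2 (normexp), 3 (processed signals), 3 (no background correction), 6 (centred), 0 (scan batch) and 0 (replicate block of tumor number over the 2 pairs). As a random block, tumor number changed no call of a member.

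Reversed differences lay mostly near 0, and the cause was not tested. For sarcomatoid minus adenocarcinoma, *Twist2* became 0.051 (scan batch), 0.075 (without both lung arrays) and 0.049 (1 value per tumor number). *Foxc2* became 0.19 (normexp), 0.016 (processed signals), 0.26 (no background correction), 0.19 (scan batch) and 0.0031 (1 value per tumor number). *Tcf4* became -0.092 for A_51_P265137 without both lung arrays, -0.032 (processed signals) and -0.085 (without both lung arrays) for A_52_P424847, 0.073 for A_52_P521101 (scan batch) and -0.0079 as the mean over its probes. In the mammary contrast, scan batch turned *Snai2* to -0.29, *Twist2* to -0.38 and *Tcf4* to 0.043 (A_52_P424847) and 0.18 (A_52_P521101). These scan batch values are the differences within batch 2 alone. The slide block turned *Twist2* to -0.0019. For lung minus mammary, *Snai2* became 0.052 (centred), 3.73 (scan batch), 0.24 (slide) and 0.0089 (replicate block over pairs), and *Snai3* 0.049 (normexp), 0.081 (no background correction) and 0.29 (replicate block over pairs). Scan batch also turned *Twist2* to 0.78, *Zeb2* to 1.60 (A_52_P596008), 1.59 (A_51_P121206), 1.63 (A_52_P587928) and 0.80 (A_52_P526372), and *Tcf4* A_52_P521101 to -0.20. The scan batch values for lung minus mammary compare the sites only through the adenocarcinomas of batches 2 and 3. They are not read as reversals. The replicate block over pairs turned *Zeb2* A_51_P106893 to -0.17.

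Leaving out 1 array at a time, sarcomatoid minus adenocarcinoma ranged from -0.45 to 0.74 for *Twist2*, -0.73 to 0.51 for *Foxc2*, and -0.15 to 0.53, -0.24 to 0.54 and -0.45 to 0.15 for the *Tcf4* probes A_51_P265137, A_52_P424847 and A_52_P521101. In the mammary contrast the ranges were -0.65 to 0.12 for *Snai3*, -0.27 to 0.92 for *Twist2*, -0.44 to 0.041 for *Foxc2*, and -0.37 to 0.31 and -0.39 to 0.40 for *Tcf4* A_51_P265137 and A_52_P424847. For lung minus mammary they were -0.077 to 0.96 for *Snai1*, -1.68 to 1.64 for *Snai2*, -0.56 to 0.36 for *Snai3*, -2.11 to 1.25 for *Twist2*, -0.075 to 0.87 for *Zeb1*, -0.17 to 0.28 for *Zeb2* A_51_P106893, -1.84 to 3.11 for *Foxc2* and -0.0048 to 0.72 for *Tcf4* A_52_P424847. Signal over background limits *Snai3*, which the filter on dim probes left out.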
